A study of Mus musculus with 231 samples.

Results

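mmu-miR-147-3p and mmu-miR-3473b, called miR-147-3p and miR-3473b below, are 2 of the 1863 mature miRNAs counted in peripheral blood mononuclear cells (PBMC) of a mouse model of acute myeloid leukemia (AML). They were chosen by measured values, the lower counts in CM mice at month 1, so the month 1 difference is given as a description without a test. CM mice were C57BL/6 Cbfb56M/+/Mx1-Cre animals, in which Cre driven by the interferon-responsive Mx1 promoter switches on the leukemia fusion Cbfb-MYH11 (CM), and all of them had the genotype code CHW. Ctrl mice were littermates of the same age that, per the labels, lacked the transgene, and their codes were CW, HW or WT. The codes are not explained in the sources used here. Every mouse of both arms received 7 intraperitoneal doses of poly(I:C) at 14 mg/kg from an age of 6 to 8 weeks, so Ctrl mice were not untreated. The training cohort held 7 CM mice with 53 libraries and 7 Ctrl mice with 76 libraries, drawn before induction (month 0) and monthly up to month 10. In the validation cohort, 10 CM mice gave 60 libraries and 6 Ctrl mice gave 42. By sex, the training mice were 4 female and 3 male in CM and 2 female and 5 male in Ctrl. The validation mice were 5 female and 5 male in CM and 3 female and 3 male in Ctrl. The CM libraries thinned out over time, from 7 at month 3 to 6 at month 4, 5 at month 6 and 1 at month 10. Each training title carries a number after the letter G, from 1 to 7, whose meaning is not stated, and it is called the G number below.

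A miRNA is a short RNA that pairs with target mRNAs through its seed, bases 2 to 8 from the 5′ end, and lowers their translation or stability. Both arms of the miR-147 hairpin lie in the last exon of AA467197 (Nmes1), and miR-147 is known as a miRNA that macrophages induce after stimulation of Toll-like receptors (TLR), which dampens inflammatory cytokines. Poly(I:C), the inducer given to both arms, is a ligand of TLR3. The miR-3473 family is different in kind, because its members derive from short interspersed repeats (SINE), which are scattered over the mouse genome, and their functions are less settled.

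The sequences show how miR-3473b relates to the family members with which its reads could be shared, and the partner arm of miR-147-3p, which itself is named only. RefSeq mature sequences (GRCm38.p6) are shown 5′ to 3′ with the seed in capitals, and 8 members of the miR-3473 family and miR-147-5p matched by name.
miR-147-5p: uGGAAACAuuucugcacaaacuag
miR-3473b: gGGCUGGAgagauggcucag
miR-3473e: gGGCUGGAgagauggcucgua
miR-3473a: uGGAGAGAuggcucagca
miR-3473d: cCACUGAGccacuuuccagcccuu
miR-3473b (chr10:41670774-41670793, plus strand) and miR-3473e (chr5:31667296-31667316, minus strand) shared a run of 18 bases and the seed GGCUGGA, which no other mature miRNA of the 1679 names in the table carried. miR-3473a (chrX:162874920-162874937, minus strand) shared a run of 16 bases with miR-3473b but, being shifted along it, had the different seed GGAGAGA. miR-3473d (chr8:111016498-111016521, minus strand) shared no run longer than 3 bases in the same direction, and its reverse complement shared 8. miR-147-5p (chr2:122640814-122640837, plus strand) was unrelated to them and was the sole mature miRNA with the seed GGAAACA.

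An exact search of the mouse genome (NCBIM37, chromosomes 1 to 19, X, Y and M, both strands) found the 20 bases of miR-3473b at 24805 positions. The median mature miRNA had 1 exact copy, 1542 of 1679 had exactly 1, and miR-3470b was the only one with more copies than miR-3473b. miR-3473a had 9461 copies, whereas miR-3473e, miR-3473d and miR-147-5p had 1 each. Of the miR-3473b copies, 53.7% lay within annotated genes on either strand and 1.53% overlapped an exon. The annotated hairpin was found once, at chr10:41390545-41390599 (NCBIM37, plus strand), inside the gene Ccdc162 on the opposite strand and outside its exons. The Mir147 hairpin was at chr2:122466539-122466617 (NCBIM37, plus strand), whole within the 3′ untranslated part of the last exon of AA467197 in 2 annotated transcripts. A read of miR-3473b therefore names a sequence and not a locus, and its values carry that uncertainty throughout.

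The training libraries held 1792809 to 7958411 counts (median 4437464), and 12 validation libraries of point 5 held 1645456 to 5445215 reads against 1744 to 76906 in the other 90. The markers of the labelled tissue were present in every month from 0 to 6, with no library group at 0 for the pan-leukocyte miR-142a arms, the lymphocyte miRNAs miR-150 and miR-342 or the myeloid miR-223 arms. CM mouse 3334 and Ctrl mouse 3335 went against their arms at months 5 and 6 in miR-126a-3p, the miRNA that rises in this leukemia, at 144 and 163 CPM in 3334 against 258 and 581 CPM in 3335. At month 4 they were at 274 and 95.7 CPM, and 3334 was at 2552 CPM at month 6.5, both as their labels would have it. CPM here means the training count divided by the TMM-scaled library size, on the usual counts-per-1e6 scale, and in the validation cohort the deposited value. Each result was therefore repeated without both mice, and the value is given wherever a call changed. The Ctrl library of mouse 3349 at month 2 was the shallowest of all. miR-3473b was higher in shallower libraries, with Pearson's r of -0.62 between log2(CPM + 1) and log2 total count over all training libraries, -0.73 in Ctrl and -0.52 in CM, whereas r was -0.08 for miR-147-3p.

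Before induction, neither member differed detectably between mice that would later express CM and their littermates. At month 0 miR-147-3p stood at 10.7, 16.5 and 68.6 CPM (lowest, median and highest) in 7 CM mice and at 10.9, 18.7 and 34.7 CPM in 7 Ctrl mice. The arms overlapped, and the highest library of all at month 0 was a CM one, mouse 3334. The log2 fold change of CM over Ctrl was -0.04 ± 0.43 (SE, adjusted p = 0.980, edgeR's quasi-likelihood test with Benjamini-Hochberg adjustment, as in all monthly tests below). miR-3473b stood at 11.96, 22.1 and 72.6 CPM in CM and at 20.3, 24.8 and 51.2 CPM in Ctrl, a log2 fold change of -0.16 ± 0.37 (adjusted p = 0.874, edgeR). Without CM mouse 3334 the miR-147-3p value was -0.73 and was not called (adjusted p = 0.238, edgeR). Of all 478 miRNAs tested at month 0, 0.209% were called.

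At month 1, the contrast by which both were picked, miR-147-3p was at 5.58, 8.48 and 18.1 CPM in CM and at 11.8, 18.4 and 102.6 CPM in Ctrl. All 7 CM libraries lay below the Ctrl median, and 5 of them below every Ctrl library. The Ctrl spread came from mouse 3342 at 102.6 CPM and mouse 3346 at 60.2 CPM, and the other five Ctrl libraries were at 11.8 to 21.2 CPM. miR-3473b was at 4.04, 6.36 and 20.0 CPM in CM and at 9.97, 24.9 and 51.5 CPM in Ctrl, again with 7 CM libraries below the Ctrl median and 5 below every Ctrl library. The log2 fold changes were -1.84 ± 0.50 for miR-147-3p and -1.81 ± 0.44 for miR-3473b (SE). Just outside the choice, which was limited to a mean of at least 10 CPM, were miR-139-5p at -1.58 ± 0.27 and miR-149-5p at -1.42 ± 0.37. At any level, 3 of 472 miRNAs, miR-147-3p among them, had a larger decrease than miR-3473b. Of 472 miRNAs tested at month 1, 27.5% were called and 12.9% called lower in CM. For 1.91% every CM library lay below every Ctrl library, which held for neither member. Nothing is read from these shares for the members.

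**Figure D1:**
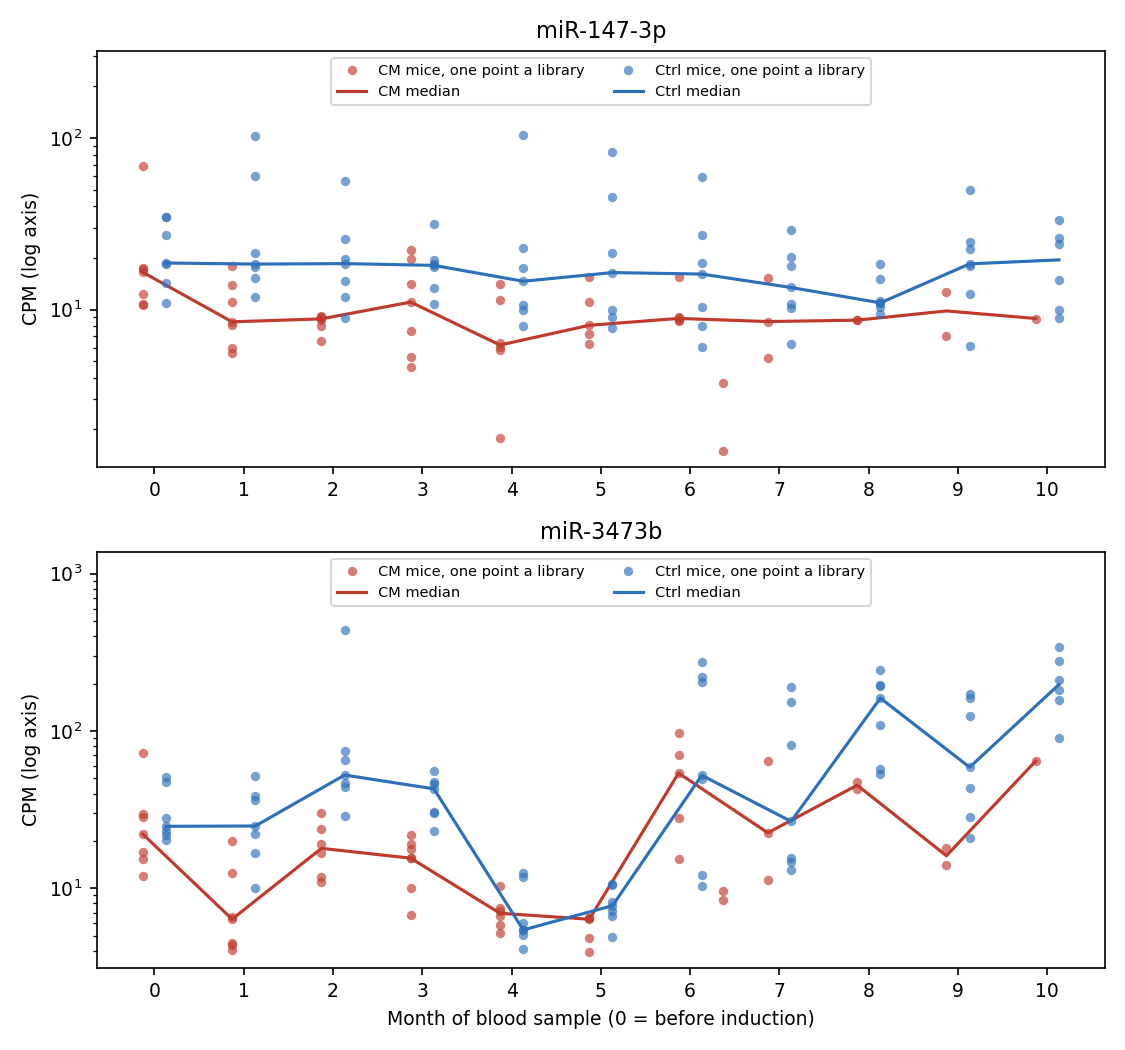
CPM (log axis) of miR-147-3p (upper) and miR-3473b (lower) in every training library by month, with lines through the medians of 7 CM mice at first and 1 at month 10 (red) and of 6 or 7 Ctrl mice (blue); points at month 6.5 are the extra libraries of CM mice 3334 and 3336. The CM median of miR-147-3p stays below that of Ctrl from month 1, while miR-3473b falls to 5.44 CPM (Ctrl median, month 4) and climbs to 197 CPM at month 10.

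The months after month 1 give values that the choice did not use, though in the same mice. At month 2 both members were lower in CM. miR-147-3p was at 6.52, 8.83 and 9.12 CPM in the CM arm (6 mice) and at 8.89, 18.5 and 56.1 CPM in 7 Ctrl mice. Every CM library lay under the Ctrl median, and the ranges met only between the lowest Ctrl library and the upper CM ones. The log2 fold change was -1.41 ± 0.38 (adjusted p = 0.0228, edgeR). miR-3473b was at 10.99, 17.9 and 29.9 CPM in CM and at 28.8, 52.4 and 436 CPM in Ctrl, with 5 of 6 CM libraries below every Ctrl library. Its log2 fold change was -2.53 ± 0.65 (adjusted p = 0.0210, edgeR). The highest Ctrl value of both miRNAs was the shallow library of mouse 3349. Without that mouse the fold changes were -0.98 ± 0.23 (adjusted p = 0.00983, edgeR) and -1.46 ± 0.30 (adjusted p = 0.00489, edgeR). Both members were among the 5.82% of 481 miRNAs that were called lower in CM (13.5% were called in either direction).

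Several settings ended the calls of month 2. The miR-147-3p call was lost without CM mouse 3338, 3341, 3357, 3368 or 3370 in turn (adjusted p 0.0527 to 0.0720, edgeR) and that of miR-3473b without 3368 (0.0525). In fits of all training libraries together, miR-147-3p was at -1.38 without and -1.35 with the G number and missed the threshold (adjusted p = 0.0750 and 0.122, edgeR). Only 2 G numbers held both arms, and once the G number entered the fit the log2 fold changes were -1.08 (adjusted p = 0.226) and -0.94 (adjusted p = 0.357) while no miRNA of 481 was called (86 at an unadjusted p under 0.05).

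At month 3 the arms separated fully in miR-3473b and overlapped in miR-147-3p. miR-3473b was at 6.80, 15.5 and 21.7 CPM in 7 CM mice and at 23.2, 42.9 and 55.3 CPM in 7 Ctrl mice. The highest CM library lay under the lowest Ctrl library, as it did for 3.52% of the 455 miRNAs tested. The log2 fold change was -1.30 ± 0.27 (adjusted p = 0.00363, edgeR), and it stayed called when each mouse was left out in turn (highest adjusted p 0.0109). miR-147-3p was at 4.62, 11.1 and 22.2 CPM in CM and at 10.8, 18.1 and 31.7 CPM in Ctrl, where 3 CM libraries lay below every Ctrl library. Its log2 fold change of -0.57 ± 0.35 did not pass (adjusted p = 0.244, edgeR). Thus 1 of 2 members was called lower, against 7.69% of all miRNAs (22.0% in either direction). In fits of all training libraries together the miR-3473b value was -1.38 and missed the threshold (adjusted p = 0.0636, edgeR). CM and Ctrl libraries of month 3 shared only 1 G number, where the CM minus Ctrl differences of the members were -1.79 and -1.59 on the log2(CPM + 1) scale. After the G number was added to the fit the miR-3473b value was -1.43 (adjusted p = 0.343), so arm and G number could hardly be told apart in this month.

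From month 4 to month 6 neither member was called, as was the case for nearly all miRNAs (4 of 478, 0.837%, at month 4, and 0.0% at months 5 and 6, with 21.6% and 6.98% of miRNAs at an unadjusted p under 0.05). DESeq2 called 24 miRNAs at month 5 and 0 at month 6. Without mice 3334 and 3335, edgeR called 53 of 511 miRNAs at month 5, neither member among them, and 0 of 445 at month 6. The 0.0% of month 5 therefore depended on these mice. The CM medians of miR-147-3p were below those of Ctrl in each of these months, without a call. At month 4 it was at 1.79, 6.21 and 14.0 CPM in 6 CM mice and at 8.04, 14.6 and 104.5 CPM in Ctrl, and 4 CM libraries lay below every Ctrl library (log2 fold change -1.79 ± 0.64, adjusted p = 0.163, edgeR). With all training libraries in 1 fit the month 4 difference was called, at -1.81 (adjusted p = 0.0111, edgeR). That fit took repeated libraries of a mouse as independent, which can make an adjusted p too small. No G number held both arms at month 4, so arm and G number could not be told apart. At month 5 its 5 CM libraries were at 6.29 to 15.5 CPM and the Ctrl libraries at 7.84 to 83.1 CPM (-1.46 ± 0.59, adjusted p = 0.189). At month 6 they were at 8.60 to 15.4 CPM and 6.06 to 59.3 CPM (-1.09 ± 0.53, adjusted p = 0.706). Ctrl mouse 3342 held the highest Ctrl value in each of these 3 months, at 104.5, 83.1 and 59.3 CPM, and was at 17.9 CPM at month 7. Without this mouse the log2 fold changes of months 4, 5 and 6 were -0.86, -0.92 and -0.54 (adjusted p = 0.387, 0.319 and 0.847, edgeR).

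miR-3473b was low in both arms at months 4 and 5. It was at 5.17 to 10.4 CPM in CM and 4.12 to 12.4 CPM in Ctrl at month 4, with a log2 fold change of 0.03 ± 0.32 (adjusted p = 0.963, edgeR). At month 5 the CM libraries were at 3.95 to 6.48 CPM and the Ctrl libraries at 4.89 to 10.7 CPM (-0.48 ± 0.23, adjusted p = 0.248, edgeR). All 5 CM libraries of month 5 lay below the Ctrl median and 2 below every Ctrl library, and CM was lower within each of the 4 G numbers that held both arms. The total counts of these months were high, with medians of 5569530 and 5737477 in CM and 4908573 and 5516140 in Ctrl. At month 6 the libraries were shallower, with medians of 3232240 in CM and 3292113 in Ctrl, and miR-3473b was at 15.3, 27.9, 53.9, 70.4 and 97.7 CPM in the 5 CM mice. The 7 Ctrl libraries of month 6 fell apart, 2 at 10.3 and 12.1 CPM, 2 at 49.2 and 52.2 CPM and 3 at 204, 221 and 273 CPM. The arms overlapped (-1.23 ± 0.80, adjusted p = 0.706, edgeR). What part depth had in this course was not tested in these monthly fits.

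**Figure D2:**
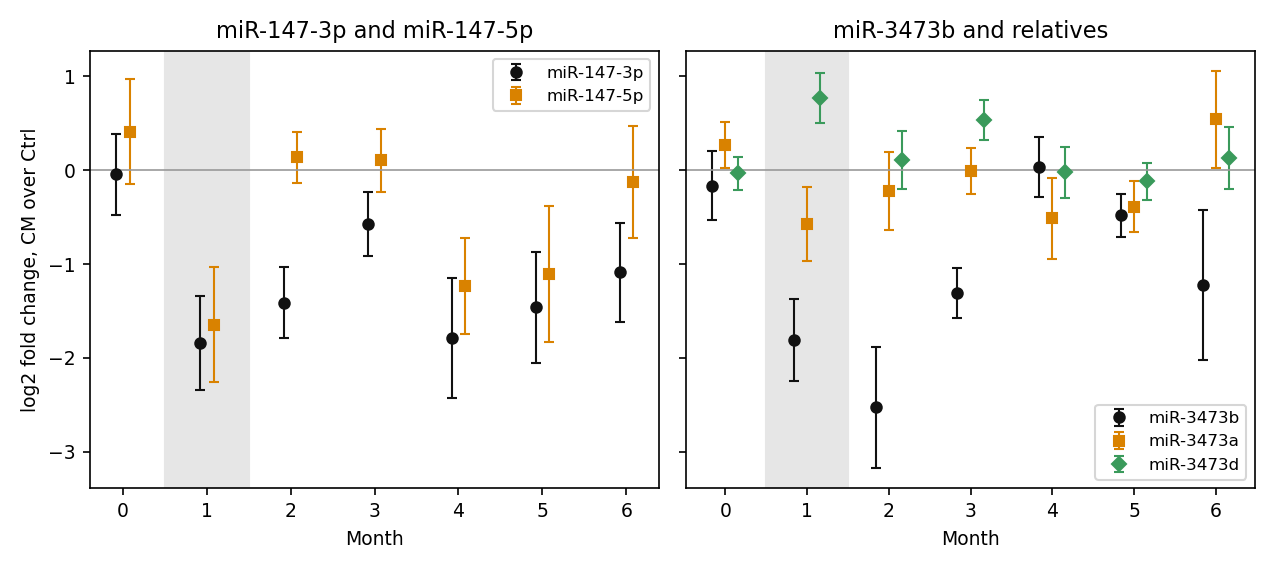
Log2 fold change of CM over Ctrl with its SE (bars) at each month, from edgeR, for miR-147-3p and miR-147-5p (left) and for miR-3473b, miR-3473a and miR-3473d (right); the shaded month 1 chose the members. miR-147-3p is below 0 at every month after month 0, at -0.57 to -1.79 in months 2 to 6, and miR-3473b is near 0 at month 4.

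Taking each mouse as 1 value, both members were lower in CM mice over months 2 to 6. The mean log2(CPM + 1) of miR-147-3p was 3.25 ± 0.40 for CM and 4.24 ± 0.66 for Ctrl (SD, n = 7 mice each), a difference of -0.99 (exact two-sided permutation test, p = 0.00233, adjusted p = 0.00932 over 8 such tests). 6 of 7 CM mice lay below every Ctrl mouse, and the exception, 3370 at 3.88, lay above the 3 lowest Ctrl mice. The mean of miR-3473b was 3.82 ± 0.28 in CM and 4.70 ± 0.29 in Ctrl, a difference of -0.88 (exact permutation p = 0.000583, the smallest that 7 against 7 mice can give, adjusted p = 0.00466). All 7 CM mice, at 3.30 to 4.13, lay below all 7 Ctrl mice, at 4.33 to 5.13. Mouse means were not computed for the other miRNAs, so how unusual such a separation is was not tested. Both differences passed without mice 3334 and 3335, without any single mouse, from the deposited CPM, and within G numbers (residuals after the mean of each G number), where they were -0.99 and -1.01. After adjustment for total count they were -0.995 and -0.91, and with the erythroid miRNAs left out of the library sizes -0.98 and -0.87. None of these mouse-level settings took account of sex, whose balance differed between the training arms. In blood, which is a mixture, fewer cells that make a miRNA and less of it per cell cannot be told apart.

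**Figure D3:**
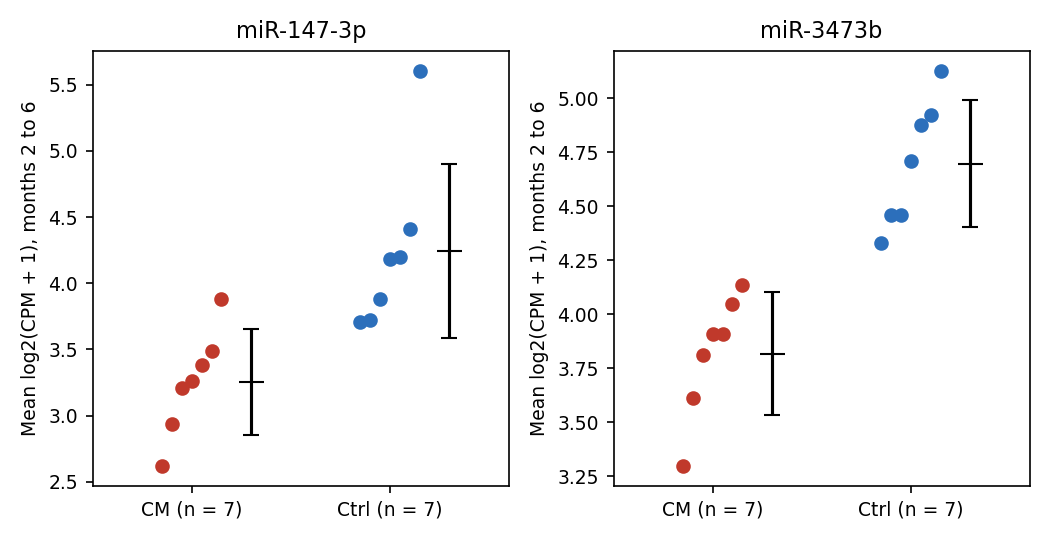
Mean log2(CPM + 1) over months 2 to 6 of each of 7 CM (red) and 7 Ctrl (blue) mice for both members, with the mean and SD of each arm in black. The 7 CM mice sit at 3.30 to 4.13 for miR-3473b, below the Ctrl mice at 4.33 to 5.13.

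Set against each mouse's own month 0, the differences were smaller than the spread. The change from month 0 to the mean of months 2 to 6 in miR-147-3p was -0.96 ± 1.17 in CM and -0.22 ± 0.94 in Ctrl (SD), a difference of -0.75 (exact permutation p = 0.262, adjusted p = 0.349). It was below 0 in all 7 CM mice and in 5 of 7 Ctrl mice. The change in miR-3473b was -0.82 ± 0.84 in CM and -0.21 ± 0.69 in Ctrl, a difference of -0.60 (exact permutation p = 0.165, adjusted p = 0.264). A single month 0 library per mouse, in which CM mouse 3334 had 68.6 CPM of miR-147-3p and 3368 had 72.6 CPM of miR-3473b, sets each of these changes.

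The course over time differed between the members. In Ctrl mice miR-147-3p had no slope that could be told from 0 over months 2 to 10, at -0.03 ± 0.11 log2 units a month (SD, 7 mice, exact sign-flip permutation p = 0.453, adjusted p = 0.493), and its monthly Ctrl medians ranged from 10.9 CPM (month 8) to 19.5 CPM (month 10). miR-3473b rose in 7 of 7 Ctrl mice, at 0.30 ± 0.09 a month (exact sign-flip permutation p = 0.0156, the smallest possible with 7 mice, adjusted p = 0.0312). Its Ctrl medians were 52.4 and 42.9 CPM at months 2 and 3, dropped to 5.44 and 7.75 CPM at months 4 and 5, and were 52.2, 26.6, 162, 58.8 and 197 CPM at months 6 to 10, so the rise was not steady. Without any 1 Ctrl mouse the slope was 0.28 to 0.32 and its adjusted p 0.0625, since 6 mice allow no exact p below 0.0312, and after adjustment for total count it was 0.20. The slope of miR-3473b to the last library was -0.12 ± 0.41 a month in CM, 0.42 lower than in Ctrl (exact permutation p = 0.00932, adjusted p = 0.0249). CM mice were followed over fewer months, however, and the difference turned to 0.22 (exact permutation p = 0.363, adjusted p = 0.580) once the Ctrl mean of the same month was taken from each value. It also missed the threshold without mice 3334 and 3335 (-0.47, adjusted p = 0.0577) and without Ctrl mouse 3335, 3339, 3340, 3346 or 3350 (adjusted p 0.0590 to 0.0625). The CM minus Ctrl slope of miR-147-3p was -0.06 (exact permutation p = 0.493, adjusted p = 0.493).

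In late months few CM mice were left. At month 7, 3 CM mice had 5.19, 8.51 and 15.3 CPM of miR-147-3p against a Ctrl range of 6.33 to 29.3 CPM. The same mice, 3336, 3368 and 3370, had 22.5, 11.3 and 64.6 CPM of miR-3473b, of which 1 lay below the lowest Ctrl library at 13.0 CPM. At month 8, mice 3368 and 3370 had 8.69 and 8.66 CPM, under every Ctrl library (lowest 9.39 CPM). At month 9 their 7.01 and 12.6 CPM overlapped with Ctrl (lowest 6.10 CPM). They had 47.4 and 42.98 CPM of miR-3473b at month 8 and 14.0 and 18.2 CPM at month 9, under the lowest Ctrl libraries at 53.4 and 20.9 CPM. The last CM library of the series, mouse 3368 at month 10, had 8.87 CPM of miR-147-3p and 64.4 CPM of miR-3473b, and the lowest of 6 Ctrl libraries had 8.91 and 90.5 CPM. These months have no test because 1 to 3 CM mice remained. The share of all miRNAs with every CM library below every Ctrl library was not computed for them. With so few CM libraries nothing is read from the separations.

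Between month 0 and the last library of each CM mouse, miR-147-3p fell and miR-3473b did not change detectably. The log2 fold change of miR-147-3p was -1.48 ± 0.43 (adjusted p = 0.0138, edgeR), and it was 1 of 2 members called among 446 miRNAs of which 39.0% were called, 15.9% lower and 23.1% higher. The value shrank to -0.75 (adjusted p = 0.0391) without mouse 3334, whose month 0 library was the highest. With the mouse as a replicate block it was -1.13 (adjusted p = 0.0697), which missed the threshold. miR-3473b changed by -0.22 ± 0.52 (adjusted p = 0.743). In Ctrl mice from month 0 to month 6, miR-147-3p was at -0.04 ± 0.47 (adjusted p = 0.958, edgeR) and miR-3473b rose by 2.01 ± 0.66 (adjusted p = 0.0427, edgeR), with 20.5% of 474 miRNAs called, 10.8% higher and 9.7% lower. With the mouse as a replicate block the rise was 1.19 (adjusted p = 0.346), and it was not called without Ctrl mouse 3340, 3342, 3346 or 3350 (adjusted p 0.0664 to 0.141). This comparison shares its month 6 libraries with the monthly test of CM against Ctrl.

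The partner arm of miR-147-3p, miR-147-5p, was at lower levels, with a mean of 5.37 CPM over the training libraries against 17.6 CPM, and with counts as low as 1. At month 1 it was high in the same Ctrl mice, 36.7 CPM in 3342 and 31.9 CPM in 3346 against 2.29 to 7.95 CPM in the others, and CM libraries were at 2.79 to 5.20 CPM. At month 5 those mice were again the highest, at 35.1 and 25.8 CPM. At month 6, in contrast, mouse 3342 had 59.3 CPM of the 3p arm and 0.573 CPM of the 5p arm. In CM mouse 3334 at month 0 both arms were the highest of their group, at 68.6 and 40.4 CPM. Pearson's r between the arms was 0.49 over all training libraries, 0.51 in Ctrl and 0.64 in CM, as a description of libraries that share mice. miR-147-5p was not called at any of months 0 and 2 to 6, and its log2 fold changes there ran from -1.23 at month 4 to 0.41 at month 0. At months 2 and 3, when the 3p arm was at -1.41 and -0.57, the 5p arm was at 0.14 ± 0.27 (adjusted p = 0.746, edgeR) and 0.11 ± 0.33 (adjusted p = 0.876, edgeR). In Ctrl mice the 5p arm fell from month 0 to month 6, by 1.15 on the log2 scale (SE 0.35, adjusted p = 0.0357, edgeR), a call that was lost without Ctrl mouse 3339, 3340, 3346 or 3350 (adjusted p 0.0610 to 0.0988), without a filter on low counts (0.0876) and from recovered reads (0.0650).

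Of the 9 listed miR-3473 family members, 7 were in the count table and 3 or 4 passed the filter on low counts in a given month, miR-3473a, miR-3473b, miR-3473d and, at month 5, miR-3473g. miR-3473b was the 1 called at months 2 and 3, and the median of those tested was -0.22 and -0.01 beside -0.02 and 0.07 over all miRNAs. At month 3 miR-3473a was at -0.01 ± 0.24 (adjusted p = 0.982, edgeR) and miR-3473d at 0.53 ± 0.21 (adjusted p = 0.0801, edgeR). The difference between family members was not tested. In Ctrl mice from month 0 to month 6, miR-3473a fell by 1.51 (SE 0.45, adjusted p = 0.0304, edgeR) in the fit without the mouse as a block. The rise of miR-3473b in that fit was not called with the block (1.19, adjusted p = 0.346, edgeR). The value of miR-3473a with the block is not given here. Over the training libraries, r with miR-3473b was 0.28 for miR-3473a and -0.27 for miR-3473d.

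How far miR-3473e can be separated from miR-3473b depended on the table. Its counts were 0 to 28 in the count table, with a mean of 0.513 CPM in CM and 0.953 CPM in Ctrl, and r with miR-3473b was 0.53 (0.54 in Ctrl and 0.31 in CM). In the deposited CPM table its mean was 17.5 in CM and 76.3 in Ctrl, close to 21.1 and 79.6 for miR-3473b, and r between both was 0.99. The reason for this difference between the tables was not tested. miR-3473b itself was nearly the same in both tables (r = 1.00 after rounding), and miR-147-3p had r = 0.98 but a lower mean in the deposited CPM, 10.6 against 17.6.

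The miRNAs whose course was most like that of each member were found over the 53 CM and 76 Ctrl libraries together, among 330 others with a mean of at least 10 CPM. miR-3473b was closest to miR-5121, with r = 0.92 in all libraries, 0.93 in Ctrl and 0.87 in CM, whereas the median r over the 330 was -0.05. miR-5121 shared no run of bases longer than 4 with it and had 1 genomic copy. Its level followed depth as well, with r of -0.71 in Ctrl and -0.45 in CM against log2 total count. It was lower in CM at month 2 by 1.40 (SE 0.24, adjusted p = 0.00347, edgeR) and at month 3, at -1.06 ± 0.18 (adjusted p = 0.00179, edgeR), and in Ctrl mice it rose from month 0 to month 6 by 3.13 ± 0.59 (adjusted p = 0.00215, edgeR). The next were miR-466i-5p, miR-324-3p, miR-1291 and miR-345-5p at r = 0.70 to 0.74. Of these 5, 2 were called lower at month 2 and 3 at month 3, beside 5.82% and 7.69% of all miRNAs. They were picked for following miR-3473b in the same libraries, so nothing is read from these calls, those of miR-5121 included.

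miR-147-3p was closest to miR-149-5p, with r = 0.75 in all libraries, 0.71 in Ctrl and 0.86 in CM (median r over the 330, 0.03). It was followed by miR-139-3p, miR-652-3p, miR-139-5p and miR-574-5p at 0.63 to 0.69. None of these 5 was called at month 0 or at months 2 to 6 (edgeR). 3 of the 5, miR-149-5p at -1.56 ± 0.44, miR-139-3p at -1.22 ± 0.32 and miR-139-5p at -2.07 ± 0.36, fell from month 0 to the last CM library (adjusted p = 0.0117, 0.00840 and 0.000882, edgeR), beside 15.9% of all miRNAs called lower. miR-149-5p and miR-139-5p also fell in Ctrl mice by month 6, by 1.12 and 1.14. These 5 were likewise picked for following miR-147-3p in the same libraries, so nothing is read from their calls. The points of these correlations share mice, months and depth, and r between the members themselves was 0.30, 0.08 in Ctrl and 0.27 in CM.

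**Figure D4:**
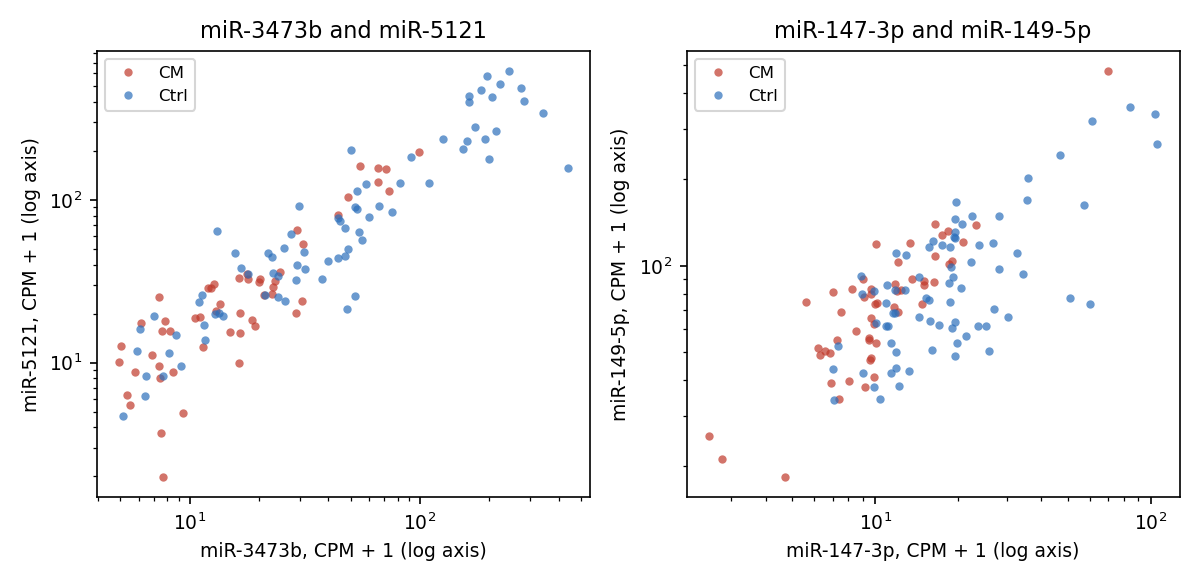
Each point is 1 training library (CM red, Ctrl blue), with CPM + 1 on log axes: miR-3473b against miR-5121 (left, r = 0.92) and miR-147-3p against miR-149-5p (right, r = 0.75). The Ctrl points of the left plot spread over the widest range.

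Few other miRNAs that TLR signalling is known to raise were called between the arms. Of 9 listed (miR-155, miR-146a, miR-146b, miR-132, miR-212, miR-9, miR-21a and miR-187 arms), 7 passed the filter. None was called at months 0, 2, 4, 5 or 6, and at month 3 only miR-146a-5p, a brake on TLR signalling, was, at -0.42 ± 0.14 (adjusted p = 0.0414, edgeR), or 1 of 7 beside 7.69% of all miRNAs called lower. With all mice kept, hardly any miRNA was called in the monthly tests of months 0 and 4 to 6. The difference between this list and miR-147-3p was not tested. The list median at months 2 and 3 was 0.25 and 0.02, beside -0.02 and 0.07 over all miRNAs. From month 0 to the last CM library, 3 of 6 tested were called higher and 0 lower, beside 23.1% and 15.9% of all miRNAs. In Ctrl mice from month 0 to month 6, 0 of 7 were called higher and 1 lower, beside 10.8% and 9.7%. miR-155-5p, which macrophages induce with TLR ligands, was at -0.44 ± 0.17 (adjusted p = 0.0627, edgeR) at month 3 and miR-132-3p at 1.11 ± 0.39 (adjusted p = 0.0531, edgeR). Of 6 other SINE-derived miRNAs, 3 were in the table and none was called at months 0 and 2 to 6. Their medians were -0.83 at month 2 and 0.53 at month 3.

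Markers of other cells moved with arm in the months in which the members did. Of the 4 erythroid miRNAs (miR-144 arms, miR-451a and miR-486a-5p), 4 were higher in CM at month 1, 2 at month 2 and 3 at month 3, beside 14.6%, 7.69% and 14.3% of all miRNAs, and none was called lower. Their summed level at month 3 was 22633 to 69536 CPM in CM and 26537 to 46404 CPM in Ctrl, and at month 2 it was 10440 to 31819 and 8860 to 20888 CPM. Of the 4 platelet and vessel miRNAs, 3, 2 and 3 passed the filter at months 2, 3 and 4. In each of these months 2 of them, both arms of miR-126a, were called higher in CM (beside 7.69%, 14.3% and 0.628% of all miRNAs). The summed level of the 4 was 204 to 2407 CPM in CM and 135.6 to 183 CPM in Ctrl at month 3. miR-126a is also the miRNA this leukemia is known to raise, so it does not mark platelets alone here. The lymphocyte list summed to 24147 to 55032 CPM in CM and 53089 to 92081 CPM in Ctrl at month 3. There 1 of 4 (miR-150-5p) was called lower, beside 7.69% of all miRNAs, and 1 of 2 myeloid miRNAs (miR-223-3p) was called higher, beside 14.3%. Of the 2 pan-leukocyte miRNAs, 1 was called lower at month 2 and none at month 3, beside 5.82% and 7.69% of all miRNAs. No marker of these lists was at 0 in a group at months 0 to 3. Their part in the lower values of miR-147-3p and miR-3473b was not tested beyond the library-size change given above.

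In the validation cohort neither member was detectably lower in CM at point 5, the only point with deep libraries. miR-147-3p was at 22.2, 52.2, 55.04, 70.8, 97.2 and 140 CPM in 6 CM mice (2684, 2686, 2718, 2685, 2709 and 2700) and at 52.6, 62.4, 65.4, 74.1, 80.4 and 120.8 CPM in 6 Ctrl mice. The arms overlapped, the highest library being a CM one, and these values rested on 8 to 47 reads a library. The log2 fold change was -0.21 ± 0.43 (adjusted p = 0.979, limma-trend on log2(CPM + 1)). miR-3473b was at 88.1, 117.5, 127.7, 230, 495 and 549 CPM in CM and at 83.6, 125.6, 139.3, 149, 257 and 371 CPM in Ctrl, from 24 to 221 reads (0.33 ± 0.47, adjusted p = 0.979, limma-trend). Its median reads were 61 in CM and 58 in Ctrl, and those of miR-3473e were 41 and 46. At point 1 both miRNAs had medians of 297 and 413 CPM. How far miR-3473b and miR-3473e shared reads in this cohort was not tested. Of 930 miRNAs tested at point 5, 0.0% were called, 54 at an unadjusted p under 0.05, and edgeR on whole reads recovered from the deposited values called 0 as well. The labels do not tie point 5 to a month of the training cohort.

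**Figure D5:**
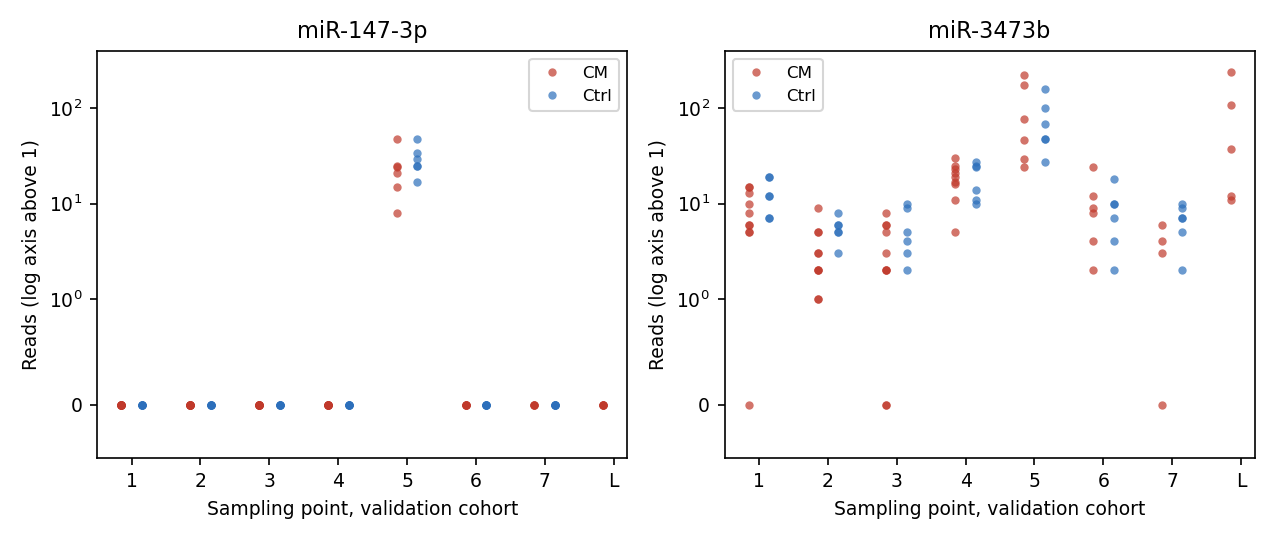
Whole reads of each member (log axis above 1) recovered from the deposited values, in every validation library by sampling point, CM in red and Ctrl in blue. miR-147-3p has reads at point 5 only, where each library holds 1645456 reads or more, and miR-3473b has 24 to 221 reads at that point.

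At the other points miR-147-3p was listed at 0 in all 90 libraries, which held 1744 to 76906 reads each. They could therefore not show a miRNA that had 8 to 47 reads in the far deeper libraries of point 5. miR-3473b was above 0 in 86 of those 90 libraries and above 3 reads in 68. Its CM and Ctrl medians were 297 and 413 CPM at point 1, 163 and 272 at point 2, 142 and 222 at point 3, 459 and 444 at point 4, 253 and 251 at point 6 and 176 and 425 at point 7. They rested on medians of 2 to 19 reads, and no miR-3473b difference passed at any point (limma-trend, smallest adjusted p 0.358, at point 7, where the log2 fold change was -2.66 ± 1.00 on 4 CM and 6 Ctrl mice). Of 144 miRNAs tested at point 2, 2.78% were called, 2.08% higher and 0.694% lower in CM, and none was called at points 1, 3, 4, 6 and 7.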

How the data were processed

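Small RNA libraries of PBMC were sequenced in 129 training and 102 validation samples. Per the study's methods the authors removed adapters (cutadapt), kept reads over 16 bases, mapped them to mm9 (Bowtie) and counted mature miRNAs of miRBase, whereas the labels name GRCm38, so the build is not settled. The deposited training counts are whole numbers for 1863 miRNAs. The deposited CPM tables (1895 training and 1817 validation miRNAs) are a TMM-scaled signal made by the authors in edgeR whose columns do not share a common sum. Whole reads could be recovered from 100% of their values (tolerance 0.1 of a read), except that 2 validation columns had too few low values to claim it.

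The members and the lists of other miRNAs were chosen with earlier results of these data known. Counts were tested month by month with edgeR 4.0.16 (TMM, filterByExpr, quasi-likelihood F test, Benjamini-Hochberg over all miRNAs, threshold 0.05, R 4.3.3), fitting only that month's libraries, and month 1 was not tested for the members. The SE of a fold change was derived from its F statistic. Validation values were tested with limma 3.58.1 (trend) on log2(CPM + 1). Mouse-level values were means and slopes of log2(CPM + 1), tested by exact permutation over mice with adjustment over 8 tests. The 5 nearest miRNAs per member and the next largest month 1 decreases were named by rule, as were list members called in at least 2 months. Same-numbered training libraries come from the same mouse, so comparisons over time were repeated with the mouse as a block, whereas the arms share no mice. Alternatives were DESeq2 1.42.0, raw library sizes, other filters and pseudocounts (0.5), sex, G number, the deposited CPM and leaving out mice. The edgeR fit was also run on simulated counts, and the outcome is not given here. Sequences are RefSeq's, matched by name, and copies were counted as exact matches. The training libraries were sequenced to 1792809 to 7958411 counts, and the fewest reads of a library limit what it can show.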

Additional observations from a re-analysis of the deposited data

Results flagged for a closer look

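Among 40 sets of 4 to 10 mice at one time, 9 had a single mouse that stood apart from the rest of its arm (Dixon's ratio over its 95% limit). For independent values with a normal spread, chance gives this in about 1 set in 20. The CPM were not put on a log scale and the sets share mice, so 9 of 40 is not read as an excess. For miR-147-3p these were CM mouse 3334 at month 0 (68.6 CPM), CM mouse 3370 at month 6 (15.4 CPM), Ctrl mouse 3349 at month 2 (56.1 CPM), Ctrl mouse 3342 at months 3, 4 and 6 (31.7, 104.5 and 59.3 CPM) and Ctrl mouse 3340 at month 9 (49.7 CPM). For miR-3473b they were CM mouse 3368 at month 0 (72.6 CPM) and Ctrl mouse 3349 at month 2 (436 CPM). All of them were the highest value of their set.

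The arms differed by test in the slope of miR-3473b from month 2 to the last library, at -0.42 log2 units a month for CM minus Ctrl, which did not hold once months were matched.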

How the results depend on the processing

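The lower mouse means of both members in CM over months 2 to 6 passed under all 8 other settings and without any of the 14 mice, at -1.03 to -0.96 and without 1 mouse -1.09 to -0.76 for miR-147-3p, and at -1.01 to -0.87 and -0.94 to -0.79 for miR-3473b. Sex was in none of these mouse-level settings. The slope of miR-3473b in CM minus Ctrl missed the threshold from the deposited CPM (-0.376), without mice 3334 and 3335 (-0.465) and after adjustment for total count (-0.343, an alternative chosen after seeing the data). It reversed to 0.219 relative to the Ctrl mean of the month, also chosen after seeing the data, and without 1 mouse it was -0.489 to -0.332. The Ctrl slope of miR-3473b missed it without 3334 and 3335 (0.285) and without 1 mouse (0.278 to 0.317). The Ctrl slope of miR-147-3p, never called, turned to 0.0135 with erythroid miRNAs left out of library sizes, another alternative chosen after seeing the data.

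Differences near 0 changed sign without being called. At month 4 miR-3473b was at -0.036 in DESeq2, -0.068 with raw library sizes, -0.021 and -0.192 in fits of all libraries without and with the G number, -0.027 from recovered reads and -0.114 to 0.174 without 1 mouse. Without mice 3334 and 3335, miR-3473b at month 0 was at 0.072 and miR-147-3p in Ctrl from month 0 to 6 at 0.098. Without 1 mouse, miR-147-3p was at -0.726 to 0.081 at month 0, -0.726 to 0.177 in Ctrl from month 0 to 6, and -0.443 to 0.078 at validation point 5. The cause of these shifts was not tested.

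With the mouse as a replicate block, the fall of miR-147-3p to the last CM library (-1.13, adjusted p = 0.0697, edgeR) and the rise of miR-3473b in Ctrl by month 6 (1.19, adjusted p = 0.346, edgeR) were not called. The block changed no other call of the members. From the deposited CPM they were at -0.880 (adjusted p = 0.0573, limma) and 1.05 (adjusted p = 0.294, limma). At month 2 the number of miRNAs called was 65 with edgeR, 55 higher plus 49 lower with DESeq2, and 0 with the G number in the fit. At month 3 the G number left 6 miRNAs called. Depth limits the validation cohort, where all points but 5 held at most 76906 reads a library.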

Other observations

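Libraries outside the monthly comparisons hold further values of both members, though those of month 6.5 entered the slopes and, for mouse 3334, the comparison of last libraries. At month 6.5, CM mice 3334 and 3336 held 3.71 and 1.495 CPM of miR-147-3p, and the latter was the lowest of all training libraries. The same libraries held 9.59 and 8.37 CPM of miR-3473b, less than the 70.4 and 15.3 CPM of these mice at month 6. The validation point L, which the labels do not explain, was sampled in 5 CM mice and no Ctrl mouse. miR-147-3p was listed at 0 in all 5, and miR-3473b was at 313 to 9109 CPM. The highest value, of mouse 2718, came from 242 reads in a library of 2547 reads.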
